A study of Caenorhabditis elegans with 2 samples.

Results

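In young adult Caenorhabditis elegans, 495 SNPC-4 peaks lay at piRNA genes of the larger piRNA cluster on chromosome IV. These peaks had their summit within 100 bp of the annotated start of a piRNA gene. They were chosen by 3 values: the deposited −log10 q-value of the peak had to be at its ceiling in the list called on both replicates pooled, the summit had to lie between positions 13600001 and 17300000 of IV (ce11), and a start of an Ensembl WBcel235 gene of biotype piRNA had to be within 100 bp. They are 495 of 918 ceiling peaks of the cluster, of 4814 ceiling peaks of the genome, and of 30000 pooled peaks in all. Of the members, 449 are not in the authors' set thresholded by irreproducible discovery rate. The remaining 423 ceiling peaks of the cluster had no piRNA start that near and serve as the main comparison. Because signal and distance chose the members, both are given as descriptions without a test. Each member is named by the piRNA gene with the nearest start.

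SNPC-4 is the worm orthologue of the large subunit of SNAPc, the complex that binds the promoters of small nuclear RNA (snRNA) genes and starts their transcription. In the worm germline it also acts at piRNA genes: each of these short genes makes its own capped precursor, which is trimmed to a 21-base piRNA that begins with U and is carried by the Argonaute PRG-1. Most such genes lie in the clusters of chromosome IV, within and between protein-coding genes in AT-rich sequence, and many have a conserved upstream element, the Ruby motif, to whose core SNPC-4 has been linked.

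The data are chromatin immunoprecipitation and sequencing (ChIP-seq) peak lists from 1 group with 2 replicates, labelled as biological, and no second condition. The worms were whole young adults of strain YL457, males and females pooled, with age not given. The strain carries unc-119(ed3) on III and the integrated array vrIs87, in which the pie-1 promoter drives GEI-11::GFP beside unc-119(+). GEI-11 is an older name of SNPC-4, and the pie-1 promoter is active in the germline. Another label describes a GFP-FLAG tag at the C terminus, and the labels do not settle which is meant. Whole animals hold many tissues, so more cells with binding and more binding per cell cannot be told apart. The pooled list and each replicate's list hold 30000 peaks and the thresholded set 1648, all without read numbers, so depth is unknown. The deposited records name a control alignment for the lists, but no control library was examined here. Intervals below are exact binomial intervals at 95% over peaks or genes and cover counting error only. SDs are over the 2 replicates unless another basis is given.

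The cluster holds 11510 of the 14714 annotated piRNA genes of IV, or 3.11 per kb, so a large part of it lies close to some piRNA start. The octamer found in more upstream regions than any other, counted on the sense strand over the 70 bases before each piRNA gene of IV, was CTGTTTCA. It stood in 5117 of 14714 upstream regions (34.8%), and its usual place was 46 to 39 bases before the start. A gene is said to have the octamer when its first base lay within 5 bases of that place. To show the sequence at the piRNA nearest a member, the 60 bases before the piRNA and its 21 bases are printed. They run 5′ to 3′ on the strand of the piRNA (WBcel235, the same assembly as ce11), with the octamer and the piRNA in capitals. The summit can lie outside the printed stretch, as at 21ur-12750, where it was 98 bp downstream of the start. First come the 8 members of highest signal whose nearest piRNA gene has the octamer.
21ur-13340 (chrIV:15234267-15234347, plus strand): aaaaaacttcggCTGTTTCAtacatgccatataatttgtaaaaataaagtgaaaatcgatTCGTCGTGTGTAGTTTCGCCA
21ur-15698 (chrIV:14526061-14526141, minus strand): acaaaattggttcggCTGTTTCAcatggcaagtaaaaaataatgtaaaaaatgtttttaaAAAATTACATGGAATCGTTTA
21ur-12750 (chrIV:14953837-14953917, plus strand): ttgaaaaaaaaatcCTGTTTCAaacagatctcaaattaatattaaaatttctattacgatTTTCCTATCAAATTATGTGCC
21ur-10400 (chrIV:15618206-15618286, plus strand): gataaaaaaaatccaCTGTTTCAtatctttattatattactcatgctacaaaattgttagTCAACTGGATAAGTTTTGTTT
21ur-1727 (chrIV:14475457-14475537, minus strand): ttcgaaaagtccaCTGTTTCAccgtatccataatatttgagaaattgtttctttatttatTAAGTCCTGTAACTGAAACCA
21ur-5594 (chrIV:14357119-14357199, minus strand): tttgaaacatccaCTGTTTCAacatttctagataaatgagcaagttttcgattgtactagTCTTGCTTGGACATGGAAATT
21ur-6765 (chrIV:14489468-14489548, plus strand): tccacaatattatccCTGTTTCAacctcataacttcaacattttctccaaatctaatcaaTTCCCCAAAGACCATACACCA
21ur-3595 (chrIV:14286769-14286849, minus strand): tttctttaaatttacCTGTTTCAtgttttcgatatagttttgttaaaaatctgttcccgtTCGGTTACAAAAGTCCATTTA

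The next 4 are the members of highest signal whose nearest piRNA gene lacks the octamer at its usual place, so only the piRNA is in capitals.
21ur-3338 (chrIV:13600789-13600869, plus strand): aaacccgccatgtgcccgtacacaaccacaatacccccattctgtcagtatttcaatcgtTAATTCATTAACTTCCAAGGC
21ur-3398 (chrIV:13601579-13601659, plus strand): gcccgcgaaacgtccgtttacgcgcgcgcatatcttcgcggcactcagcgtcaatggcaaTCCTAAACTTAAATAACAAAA
21ur-2005 (chrIV:14587016-14587096, plus strand): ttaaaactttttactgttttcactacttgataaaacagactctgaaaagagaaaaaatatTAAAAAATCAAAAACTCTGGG
21ur-458 (chrIV:14864686-14864766, plus strand): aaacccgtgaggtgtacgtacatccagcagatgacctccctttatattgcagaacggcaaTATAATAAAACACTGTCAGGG

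In the first set, 7 of 8 piRNAs begin with T in the genome (U in the RNA), and 21ur-15698 begins with A. The 60 upstream bases of these 8 examples hold 20 to 31.7% G and C. Those of 21ur-3338, 21ur-3398 and 21ur-458 are richer, with 48.3, 61.7 and 48.3%, and 21ur-2005 has 23.3%. These 3 piRNAs start 2 or 3 bases inside annotated SmY RNA genes, described with the strongest members.

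The share of ceiling peaks that stood at a piRNA start was moderately above the share of the cluster that lies so near one. Of the 918 ceiling peaks of the cluster, 53.9% were at a piRNA start, where 38.9% of all 3700000 positions of the cluster lay within 100 bp of one (1.39 times). In replicate 1, by its own list, 522 of 1004 ceiling peaks were at starts (52.0%), and in replicate 2 447 of 853 (52.4%), a mean of 52.2% ± 0.291 (SD, n = 2). Both replicates therefore gave nearly the same share. The weaker peaks of the pooled list, below the ceiling, had 1666 at starts and 1511 away, a share of 52.4%. Ceiling peaks and weaker peaks thus had about the same share. With a limit of 50 bp, 31.8% of ceiling peaks were at starts against 22.3% of positions, and with 200 bp 70.04% against 57.1%.

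The share at piRNA starts was not a steady function of peak strength. Of the cluster peaks among the 500 highest signals of the pooled list, 4 of 84 were at a piRNA start (4.76%), far below the 38.9% of positions. In the replicates that share was 5.81% and 6.25% (6.03% ± 0.308). At ranks 501 to 1648, 42 of 115 were at starts (36.5%), near the share of positions, with 46.5% and 42.4% in the replicates. At ranks 1649 to 3000 the count was 166 of 287 (57.8%, replicates 58.3% ± 0.625). At ranks 3001 to 4814, the lowest that reach the ceiling, it was 283 of 432 (65.5%, replicates 61.7% ± 0.0898), the highest share of any tier in the pooled list. Below the ceiling the share fell again, to 59.96% at ranks 4815 to 10000, 50.5% at ranks 10001 to 20000 and 45.8% at ranks 20001 to 30000. Of the 84 strongest cluster peaks, 32 had their summit within 100 bp of the start of another short noncoding gene, and without these the share at piRNA starts was 1.92%.

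**Figure D1:**
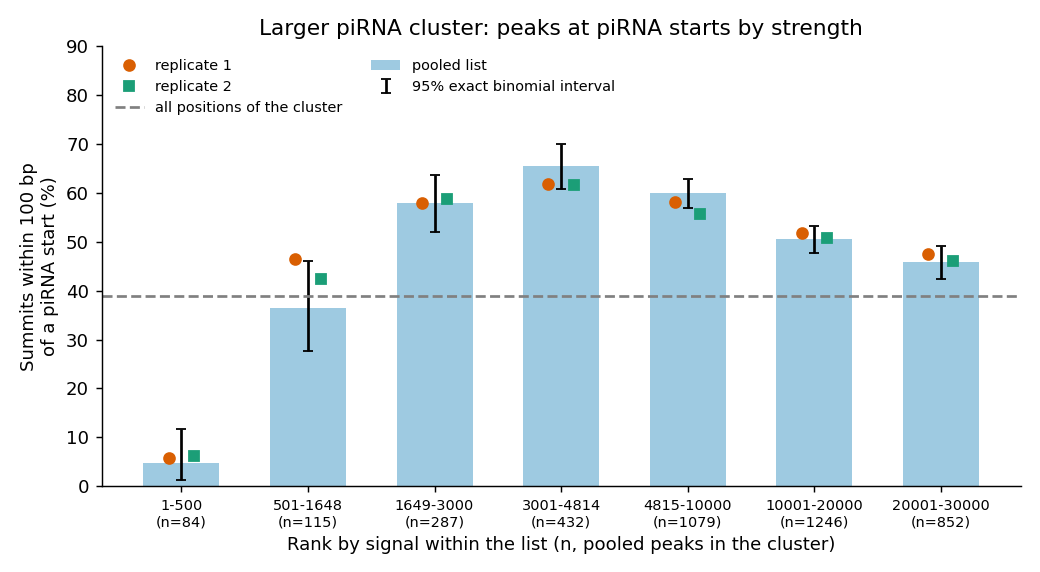
Share of cluster peaks with the summit within 100 bp of a piRNA start (vertical axis, percent) by rank of signal in the list (horizontal axis); bars are the pooled list with 95% exact binomial intervals, points are the replicates' own lists ranked the same way, and the dashed line is the share of all positions of the cluster. The share is 4.76% at the top ranks, near the dashed line at ranks 501 to 1648 and highest, at 65.5%, in the last tier that reaches the ceiling.

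Members were mostly of moderate strength. The signal, the authors' own value per peak on a scale that the sources do not give, ran from 20.1 to 321 over the 495 members, with quartiles of 22.04, 25.4 and 30.1. Among the 423 ceiling peaks away from piRNA starts the median was 30.3, the upper quartile 54.4 and the maximum 742. The lower quartiles, 22.04 and 23.9, were close, so the sets differed mainly in their upper ranges. The authors' set thresholded by irreproducible discovery rate held 46 members (9.29%, interval 6.88 to 12.2%) but 153 of the peaks away (36.2%, 31.6 to 41.0%). Of all 4814 ceiling peaks of the genome, 34.2% are in that set. The set holds 1648 peaks and followed the rank by pooled signal: the last member in it had rank 1635, the first outside it 1671. The difference in this share therefore restates the difference in signal and is not a separate measure of reproducibility. The weakest member, 21ur-8294 in an intron of ilcr-1, had a pooled signal of 20.09. The strongest peak at a piRNA start that missed the ceiling, at 21ur-11272, had 20.04. The step across the ceiling is therefore small.

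The 4 strongest members were the only members among the 500 highest pooled peaks, and 3 of them lay at the start of another short RNA gene. The strongest, 21ur-13340 (summit at IV 15234365), had a pooled signal of 321, with 171 in replicate 1 and 160 in replicate 2 (166 ± 7.77). Its summit was 38 bp downstream of the piRNA start and 81 bp upstream of the start of an annotated snoRNA gene, in an intron of pkd-2, which encodes a polycystin of male sensory neurons. Small nucleolar RNAs guide the chemical modification of ribosomal RNA. 21ur-3338 (summit at 13600804) followed with 264, and with 149 and 128 in the replicates (138 ± 14.6). Its summit was 43 bp upstream of smy-8, an SmY RNA gene, and 45 bp upstream of the piRNA start. 21ur-3398 (summit at 13601587) had 142, with 80.9 and 68.2, and its summit lay 49 bp upstream of smy-10. SmY RNAs are small RNAs that associate with spliced leader RNA particles. Both replicates ordered these 3 members alike.

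A further pair of members lay within 100 bp of the start of another short noncoding gene. 21ur-458 had a pooled signal of 65.7, with 40.4 and 30.02 in the replicates, and its summit was 30 bp upstream of smy-12, in an intron of Y57G11C.38. 21ur-9780 had 31.3, with no match in replicate 1 and 23.3 in replicate 2, and its summit was 71 bp downstream of the start of the microRNA gene cel-mir-78. In all, 5 of 495 members (1.01%, interval 0.329 to 2.34%) were near such a gene, against 33 of 423 ceiling peaks away from piRNA starts (7.80%, 5.43 to 10.8%). Of the weaker peaks of the cluster, 0 of 1666 at starts and 1 of 1511 away were near one. The share of cluster positions near such a gene was not counted. Where a piRNA start and another short gene lie a few bases apart, the peak cannot be given to either. The part of these genes in the signal of the 5 members was not tested. Without them, the highest member signal was 134 and the median was 25.2.

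The strongest member with no such neighbour was 21ur-15698 (summit at 14525994), with a pooled signal of 134 and with 64.1 and 44.4 in the replicates (54.2 ± 13.9). Its summit was 87 bp downstream of the piRNA start, and 54.3% of the 32-base words around it occur once in the genome. The mapping of reads there depends on how repeats were handled, which the sources used here do not give. 21ur-12750 (summit at 14953995), in an intron of Y41E3.22, had 74.8, with 38.4 and 44.9, and its summit was 98 bp downstream of the start. 21ur-2005 (summit at 14586978) had 70.5, with 42.1 and 27.8, and its summit was 98 bp upstream. These summits sit near the outer limit of the rule. 21ur-829 had 59.8, with 23.9 and 28.1, and its summit was 83 bp upstream.

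Closer to the start were 21ur-10400 at 56.5 (35.8 and 16.1 in the replicates, summit 20 bp downstream) and 21ur-1727 at 50.5 (18.4 and 17.3, summit 14 bp downstream). 21ur-1727 had 4 piRNA starts within 100 bp and 12 within 500 bp of its summit. 21ur-11952 at 47.9 (18.1 and 25.7) and 21ur-2814 at 47.4 (28.2 and 11.8) complete the 12 strongest. For 21ur-10400 and 21ur-2814 the replicate signals differed by more than 2 times, and for 21ur-1727 they were nearly equal. All 12 were at the ceiling in both replicates.

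The summit had no preferred side of the piRNA start. It was upstream of the nearest start for 253 members, downstream for 240 and exactly at it for 2. The upstream share was 51.1% (interval 46.6 to 55.6%), where 50.5% of all cluster positions within 100 bp of a start lie upstream. In the replicates' own lists it was 51.5% and 51.0% (51.3% ± 0.372). The median position was 2 bp upstream, with quartiles at 48 bp upstream and 38 bp downstream. Within 40 bp of the start lay 235 members (47.5%) against 46.9% of positions, so the members were spread over the window about as the sequence is. From 0 to 19 bp downstream the share was 13.5% against 12.1% of positions, with 15.5% and 11.0% in the replicates. From 80 to 99 bp downstream it was 4.44% against 7.46%, with 5.36% and 7.16%. From 20 to 39 bp downstream the replicates themselves had 9.20% and 14.1%, a wider gap than either of these departures.

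**Figure D2:**
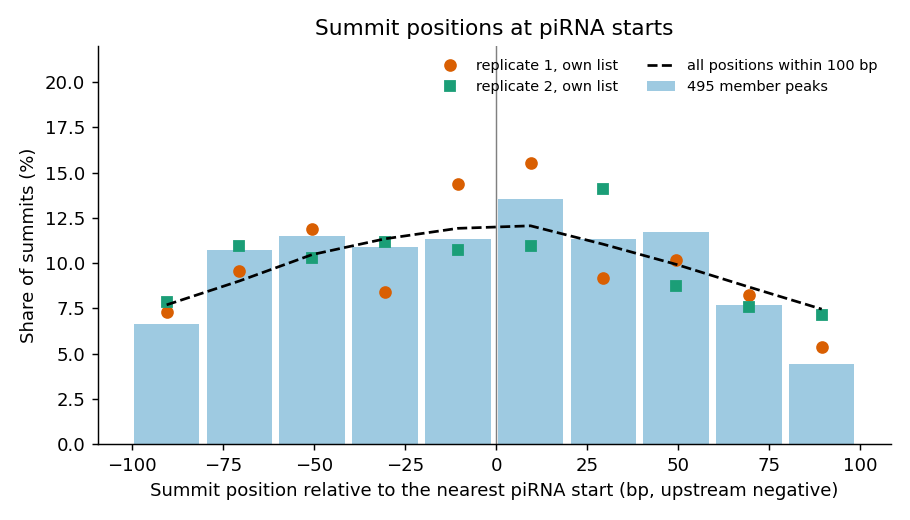
Position of the summit relative to the nearest piRNA start (horizontal axis, bp, upstream negative, bins of 20 bp) against the share of summits (vertical axis, percent); bars are the 495 members, points are the ceiling peaks at starts in each replicate's own list, and the dashed line is all cluster positions within 100 bp of a start. The bars follow the dashed line from 6.67% in the outermost upstream bin to 13.5% just downstream of the start.

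At the limit of the rule, 21ur-11483 (26.2) and 21ur-6738 (22.8) had summits 100 bp upstream and 21ur-11285 (22.8) had one 100 bp downstream. Just outside were the peaks at 21ur-6152 (101 bp downstream, signal 37.8), 21ur-8127 (102 bp upstream, 21.7) and 21ur-11593 (103 bp downstream, 40.4). The signals of these 3 peaks on each side overlap. Counting the summit from 0 in place of 1 moved 2 peaks across it.

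The octamer shown in the sequences was no more frequent at members than at other piRNA genes of the cluster. The nearest piRNA gene had it for 175 members (35.4%, interval 31.1 to 39.7%), where 33.7% of all 11510 piRNA genes of the cluster have it. In the replicates' own lists the shares were 36.6% and 32.2% (34.4% ± 3.09). For ceiling peaks away from piRNA starts, the nearest piRNA gene had it in 164 of 423 cases (38.8%, 34.1 to 43.6%), so the intervals of both sets overlap. With 1 mismatch allowed, the shares were 76.2% for members and 77.0% for all piRNA genes. Other known marks of piRNA genes were likewise about as frequent: the piRNA began with T for 477 members (96.4%) and for 96.4% of all genes. A pyrimidine 3 bases before the start with a purine 2 bases before it, the transcription start signal of these genes, stood at 389 members (78.6%, 74.7 to 82.1%) and 75.7% of all genes. Members with the octamer (median signal 24.9) and without it (25.5) were about equally strong.

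Counted from the side of the genes, 880 of the 11510 piRNA genes had a ceiling summit within 100 bp. That is 7.65% of genes, where 4.99% of all cluster positions had one. Genes with the octamer had one in 307 of 3883 cases (7.91%, interval 7.08 to 8.80%). Genes that match it with only 1 mismatch had one in 383 of 4977 (7.70%, 6.97 to 8.47%), and genes with neither in 190 of 2650 (7.17%, 6.22 to 8.22%). By the replicates' own ceiling peaks these shares were 7.65% ± 1.31, 7.80% ± 0.256 and 7.09% ± 2.08 (SD, n = 2). The intervals of the 3 classes overlap, and for genes with the octamer and genes with neither the SD over replicates is larger than the differences between classes. Genes on the plus strand (7.72%) and on the minus strand (7.57%) had ceiling summits about equally often.

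The share was low for piRNA genes with few others nearby. With no other piRNA start within 500 bp, 1 of 91 genes with the octamer (1.1%) and 6 of 170 without it (3.53%) had a ceiling summit. With 1 neighbour, the counts were 7 of 292 (2.40%) and 13 of 455 (2.86%). With 2 or 3 neighbours they were 97 of 1090 (8.90%) and 143 of 2005 (7.13%), with 4 to 6 they were 133 of 1741 (7.64%) and 267 of 3383 (7.89%), and with 7 or more 69 of 669 (10.3%) and 144 of 1614 (8.92%). Genes with the octamer were lower than genes without it in 3 of these 5 classes and higher in 2. Neighbouring genes share summits, so they are not independent.

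In terms of sequence around the summit, 202 members (40.8%, interval 36.4 to 45.3%) had the octamer on either strand within 100 bp, where 18.5% of all cluster positions did. Most of that difference goes with nearness to a piRNA start, which the rule fixed, since 35.8% of positions within 100 bp of a start also had one. Weaker peaks at starts had it in 647 of 1666 cases (38.8%), and ceiling peaks away from starts in 40 of 423 (9.46%, 6.84 to 12.7%). Within 50 bp of the summit the density was 2.61 octamers per kb at members, 2.55 at weaker peaks at starts, 2.16 at all positions near starts and 0.990 over the cluster. At ceiling peaks away from starts it was 0.142, and these have no piRNA start within 100 bp by the rule, so a low value is fixed for them too. In windows of 300 bp, 266 members (53.7%) held the octamer on either strand, and 835 of 1666 weaker peaks at starts did (50.1%). Of cluster positions 25.7% held it, and of protein-coding promoters 464 of 19984 (2.32%). The octamer was picked upstream of piRNA genes and the rule placed members at their starts, so an excess over these 2 backgrounds was fixed.

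**Figure D3:**
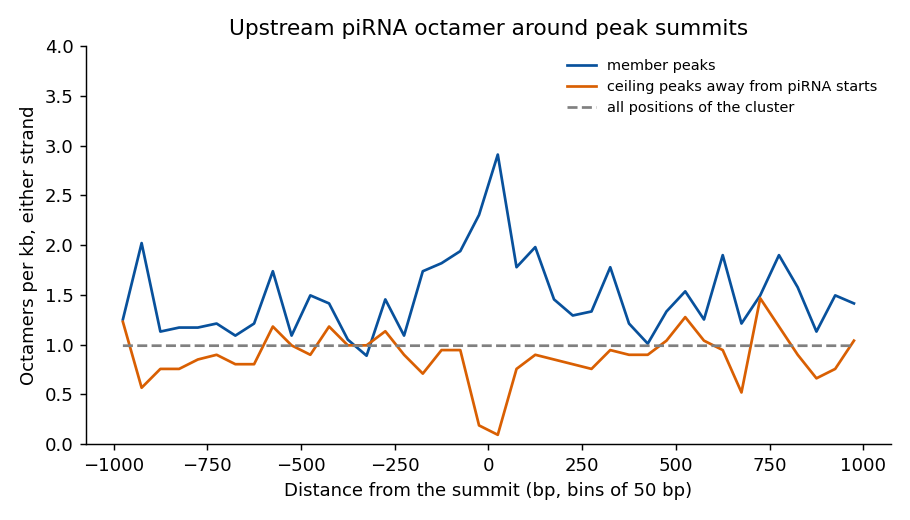
Octamers per kb on either strand (vertical axis) by distance from the summit (horizontal axis, bp, bins of 50 bp) for the 495 members and the 423 ceiling peaks away from piRNA starts, with the mean over all cluster positions as a dashed line at 0.990. The members' line is highest and the other line lowest, at 0.142 octamers per kb, within 50 bp of the summit, where the rule placed starts near the former and none within 100 bp of the latter.

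For the 175 members whose nearest piRNA gene has the octamer, the summit lay at a median of 36.5 bp downstream of the octamer's centre, with quartiles at 12.5 bp upstream and 82.5 bp downstream. By the replicates' own lists the medians were 30.5 and 40.5 bp. The absolute distance had a median of 45.5 bp to the octamer and of 46 bp to the piRNA start. The rule capped the distance to the start at 100 bp and bears on both values, so no order is read from them. Within 25 bp of the octamer's centre lay 51 of 175 summits (29.1%), and within 25 bp of the start 49 (28.0%).

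Many members stood at more than 1 piRNA gene. Together they had 880 starts within 100 bp, a mean of 1.78, none counted for more than 1 member. The rule required at least 1. The median was 2 at members and 1 at weaker peaks at starts, with an upper quartile of 2 in both sets. Within 500 bp both sets had a median of 5 starts. In bins of 50 bp within 100 bp of the summit, starts per kb ran from 7.92 to 9.74 at members and from 8.21 to 8.93 at weaker peaks at starts. The counts by number, strand and octamer that follow are for members only. They were not made for other peaks or positions near starts, so no trait of members is read from them. There was 1 start at 236 members (47.7%), 2 at 170 (34.3%), 3 at 60 (12.1%), 4 at 21 (4.24%) and 5 at 8 (1.62%). Starts on both strands were present at 77 members (15.6%). Of the 880 genes, 307 had the octamer (34.9%, against 33.7% of all piRNA genes of the cluster), and 209 members (42.2%) had at least 1 such gene. Of the members with 5 starts, the strongest were 21ur-3763 (pooled signal 41.2, replicates 27.8 and 11.1), 21ur-14493 (36.8, replicates 8.17 and 19.4) and 21ur-7878 (32.3, replicates 24.6 and 7.89). Each of these 3 was at the ceiling in 1 replicate and below it in the other.

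Most members had a peak in each replicate, but seldom a strong one in both. A summit of replicate 1 lay within 200 bp for 446 members (90.1%), where 36.7% of all cluster positions and 47.4% of positions near piRNA starts had one. For replicate 2 the count was 433 (87.5%) against 34.9% of all positions and 45.7% of those near starts. The mean over replicates was 88.8% ± 1.86 of members. Both replicates had one for 384 members (77.6%). Ceiling peaks away from starts had a summit of replicate 1 in 93.6% and of replicate 2 in 93.4% of cases. For weaker peaks at starts these shares were 65.8% and 64.6%. At the ceiling of the replicates' own lists were 251 members in replicate 1 (50.7%, all positions 10.7%, positions near starts 13.9%). In replicate 2 there were 232 (46.9%, all positions 9.16%, positions near starts 12.2%). At the ceiling in both were 90 members (18.2%) against 191 of 423 ceiling peaks away from starts (45.2%), and in neither 102 members. The pooled list was made from the same reads, so these counts describe the members and are not an independent check of them.

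The matched peaks had a median signal of 12.1 in replicate 1 and of 11.5 in replicate 2. Over the 384 members matched in both, the ratio of replicate 1 to replicate 2 had a median of 1.07, quartiles of 0.608 and 1.75 and a range from 0.103 to 6.18. The log2 signals of both replicates had a Pearson correlation of 0.00279 and a Spearman correlation of −0.18 across these members. The peaks away from starts gave 0.68 and 0.55 over 371 peaks. Weaker peaks at starts gave −0.00717 and −0.00525 over 624 peaks, so a low correlation was not particular to members. The members were selected on the pooled signal, which draws on both replicates, and 368 of the 495 had a pooled signal under 30. The members with the largest fold between replicates, in either direction, were 21ur-2096 (2.89 in replicate 1, 28.2 in replicate 2), 21ur-14072 (3.38 and 32.9) and 21ur-4236 (2.97 and 22.9). All 3 were far higher in replicate 2, but the replicate 2 peak at 21ur-14072 was also the match of the member 21ur-9341 (14.2 in replicate 1). Around 21ur-2096, 79.2% of 32-base words were unique.

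**Figure D4:**
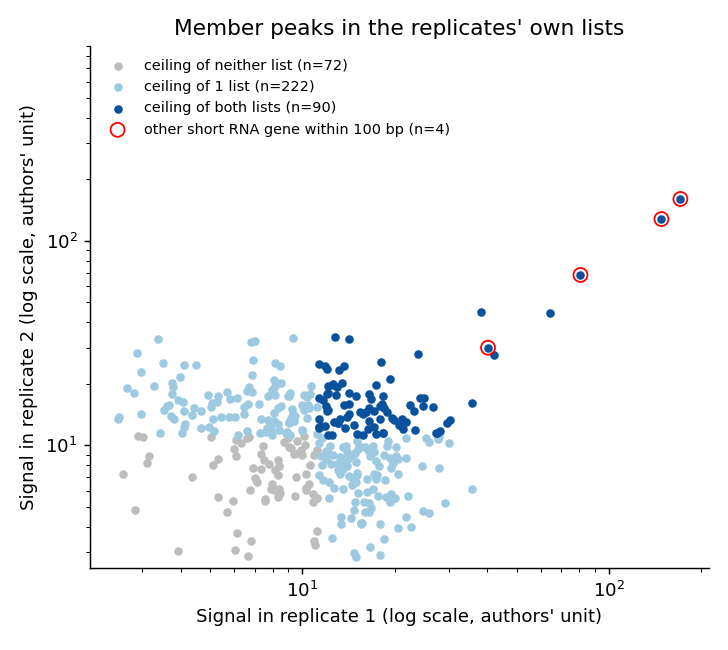
Signal of the 384 members matched in both replicates, replicate 1 on the horizontal and replicate 2 on the vertical axis, both on log scales in the authors' unit; shades show whether the peak was at the ceiling of both (90), 1 (222) or neither (72) of the replicates' lists, and circles mark the 4 matched members near another short RNA gene. Apart from a few strong members along the diagonal, with the circled ones up to 171 and 160, the points form a broad cloud, with a Spearman correlation of −0.18 over all 384.

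Some fairly strong members had no summit in a replicate. 21ur-5594 (pooled signal 45.0) had none in replicate 1 and 20.5 in replicate 2. 21ur-3949 (43.9, in an intron of cpna-4) had 22.8 in replicate 1 and none in replicate 2, as did 21ur-2572 (37.3) with 26.4 and 21ur-12948 (35.8, in an intron of acr-24) with 14.3. 21ur-8667 (35.3) had none in replicate 1 and 10.5 in replicate 2. The lists end at 30000 peaks, so a missing summit sets no limit on binding. Of the 5 weakest members, 21ur-15367 had a signal of 11.9 in replicate 1 and none in replicate 2. 21ur-13350 (12.4 and 8.13), 21ur-4004 (13.1 and 7.61), 21ur-6291 (16.6 and 8.85) and 21ur-8294 (3.44 and 11.5) were at the ceiling of 1 replicate each.

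The replicates allow the same choice to be made in one and looked up in the other, which the pooled selection does not touch. Of the 522 ceiling peaks at piRNA starts in replicate 1, 313 had a summit of replicate 2 within 200 bp (59.96%). Of the 447 chosen in replicate 2, 274 had one of replicate 1 (61.3%). The mean of 60.6% ± 0.945 stood above the 46.6% ± 1.23 of all positions near piRNA starts and the 35.8% ± 1.23 of all cluster positions. At the ceiling of the other replicate were 21.3% and 23.7% (22.5% ± 1.73), against 13.0% ± 1.24 of positions near starts and 9.91% ± 1.06 of all positions. For ceiling peaks away from starts, 44.5% ± 4.27 were at the ceiling of the other replicate. Peaks at piRNA starts were thus found again more often than positions near starts are, in both directions of lookup. They were found again less often than peaks away from starts, also in both directions. The SDs of these peak shares are over the 2 directions in the same pair of lists, which share matched peaks. They therefore do not measure spread over independent replicates. In the pooled list the peaks away had the higher median signal (30.3 against 25.4), and the part of signal in this difference was not tested. With the octamer, the share at the ceiling was 19.9% ± 0.689, and without it 23.7% ± 2.82. Chosen in replicate 1, the shares were 20.4% (39 of 191) and 21.8% (72 of 331). Chosen in replicate 2, they were 19.4% (28 of 144) and 25.7% (78 of 303). For any summit of the other replicate the order changed, with 56.0% and 62.2% from replicate 1 but 63.2% and 60.4% from replicate 2. No difference by octamer is read from these counts.

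The sequence at members was poor in G and C, as it is near piRNA genes. The median GC content of the 300 bp around the summit was 27.0%, with quartiles of 25 and 29.3%. Positions near piRNA starts had a median of 28.0%, all cluster positions 30.7% and ceiling peaks away from starts 35.3%. The members thus differed from the peaks away by far more than from the sequence around piRNA genes in general. All 32-base words in the window were unique in the genome for 442 members (89.3%), 14 members had fewer than 90% unique words, and the lowest had 43.5%. Peaks were 350 bp wide for 487 of 495 members, a width fixed in the lists, and the others ranged from 134 to 514 bp.

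Relative to protein-coding genes, 317 members lay outside any annotated gene other than piRNA genes (64.0%), 152 in introns (30.7%), 10 in coding exons (2.02%), 6 in UTRs and 10 in genes of other kinds. Of all cluster positions, 52.4% were outside such genes, 27.3% in introns and 13.2% in coding exons. Positions near piRNA starts had 63.0, 28.9 and 4.42%, close to the members. Ceiling peaks away from starts had 48.9% outside, 33.6% in introns and 7.80% in coding exons. The 168 members within protein-coding genes were in 82 genes, and the piRNA was on the strand of its host for 81 of them (48.2%). Y105C5A.15, anoh-2 and jac-1 held 7 members each, over 33.4, 16.8 and 29.0 kb. anoh-2 encodes an anoctamin family protein, and jac-1 a p120-type catenin of cell junctions. Y37A1A.4, atln-2 and tag-273 held 6 each. atln-2 encodes a protein of the atlastin family, which shapes the endoplasmic reticulum.

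Along the cluster, members followed the density of piRNA genes. They ran from position 13600804 to 17235872, with a median spacing of 4020 bp and 12 of 494 spacings under 500 bp. Bins of 100 kb held 3 to 29 members, with a median of 12. Over the 37 bins, members and piRNA genes had a Spearman correlation of 0.87 and a Pearson correlation of 0.83. For ceiling peaks away from starts the values were 0.09 and −0.03, and they depended on the bin: −0.02 and −0.19 in bins of 50 kb, and 0.41 and 0.37 in bins of 200 kb. These are descriptions: where more piRNA genes stand, more of the sequence is within 100 bp of a start, and the rule counts peaks there.

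**Figure D5:**
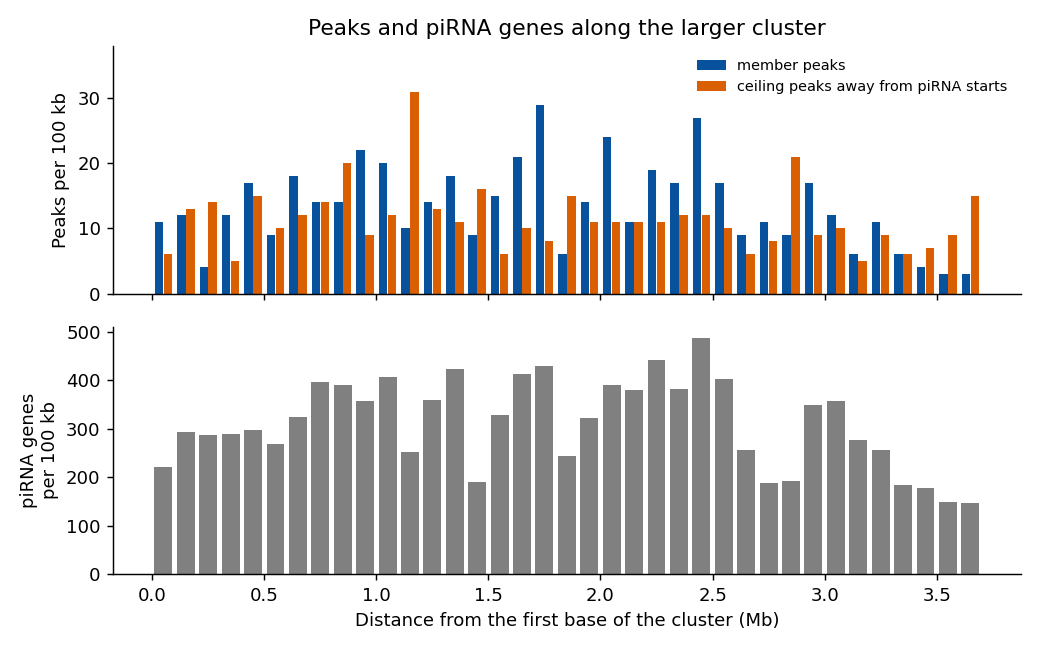
Members and ceiling peaks away from piRNA starts per 100 kb (upper panel, vertical axis in peaks) and annotated piRNA genes per 100 kb (lower panel) along the larger cluster (horizontal axis, Mb from its first base). Members, 3 to 29 per bin, follow the piRNA genes with a Spearman correlation of 0.87 over these bins, and the other peaks have 0.09.

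The smaller cluster of IV, from 4800001 to 6600000 with 2658 piRNA genes, had few such peaks. Of its 148 ceiling peaks, 15 were at piRNA starts (10.1%), where 22.1% of its positions are within 100 bp of a start. The larger cluster had 53.9% against 38.9% of positions, so the order of peaks and positions was opposite in the clusters. The 15 peaks had a median signal of 21.9 and a maximum of 242. The octamer stood at the nearest piRNA gene of 6 of them (40%, interval 16.3 to 67.7%), which overlaps the interval of the members.

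Of 23 listed genes of the piRNA pathway and of SNAPc, 22 had a gene of that name in the annotation, and 4 had a ceiling summit within 500 bp of the gene start. The share over all 19985 protein-coding genes was 10.3%. The 4 were snpc-3.4, a SNAPc subunit gene (pooled signal 45.4), prde-1, whose product works with SNPC-4 at piRNA genes (32.5), hrde-1, a nuclear Argonaute of the germline (28.2), and tofu-6, of the complex that processes piRNA precursors (23.2). Their signals lie within the range of the members. No ceiling summit lay that near the start of prg-1 or snpc-4.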

How the data were processed

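The authors deposited ChIP-seq peak lists on ce11 for each replicate and for both pooled, and a thresholded set, each with a signal per peak, a −log10 q-value and a summit offset. The scale of the deposited signal, the aligner and the peak caller were not given in the sources used here. Per the deposited text records, the lists hold peaks and background as input for an irreproducible discovery rate step, with a control alignment. The 4 lists on ce10 were not used here. Coordinates are 1-based.

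Summits were matched to Ensembl 115 WBcel235 genes, and all positions of the cluster were enumerated as background, with Python 3.11.15, numpy 2.4.6, pandas 2.3.3 and scipy 1.17.1. The octamer was found by counting. Counts and distances were first checked on simulated data. With 1 group of 2 replicates nothing was tested, and p-values are not given. The members, the lists and the alternatives were chosen with earlier results of these data known. Named were the 12 strongest and 5 weakest members, 3 on each side of the distance limit, 3 with most starts, 3 with the largest replicate ratio and 5 without a summit in a replicate.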

Additional observations from a re-analysis of the deposited data

How the results depend on the processing

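Labels number the replicates in 1 group only. No paired analysis was possible because there is no second group. With 50 bp in place of 100 bp there were 292 members (31.8% of ceiling peaks), with 200 bp 70.04% and with the thresholded set 46 (23.1%). By each replicate alone the count was 447 to 522, the share 52.0 to 52.4% and the upstream share 51.0 to 51.5%. The upstream share was 52.7% within 200 bp and 55.6% for the 90 members at the ceiling in both replicates. The octamer share was 76.2% with 1 mismatch allowed, and 31.11% for the members at the ceiling in both replicates, just below the interval of 31.14 to 39.7% for all members. Starts per member were 5.53 within 500 bp. Median GC was 26.0% in 100 bp and 28.6% in 1000 bp windows. The correlation with piRNA genes was 0.79 in 50 kb and 0.88 in 200 kb bins. Matched members were 74.4% within 100 bp and 96.7% within 500 bp. The other alternatives for the octamer, and those for peak strength, the thresholded set, gene position and pathway genes, moved their values by less than the replicate SD or the counting interval. Leaving out the members near other short noncoding genes, those at the ceiling in both replicates and the summit counted from 0 were chosen after the data were seen. Without read numbers the effect of depth was not tested.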
